A study of Homo sapiens with 9 samples.

Results

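The tropomyosin genes TPM1, TPM2, TPM3 and TPM4 were followed in A549 cells, a human lung adenocarcinoma line, after knockdown of Cyclin K. They are 4 of the 31080 reference genes or joined gene loci in the expression files, matched by symbol, and each had 1 row. TPM1, TPM2 and TPM3 are included by family name alone. TPM4 was selected on its FPKM, which rose strongly in these libraries, so its difference from the control is described here without a test. Total RNA was sequenced from cells transfected with scrambled siRNA, siCyclin K#1 or siCyclin K#2 at 50 nM and taken after 48 h, with 3 libraries in each group. All 3 groups were transfected A549 cells, no untransfected group was included in the files used here, and no label says that the 3 libraries of a group came from separate cultures. The p-values therefore measure the spread between these libraries, which may be technical.

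Tropomyosins are coiled-coil dimers that join end to end and lie along the actin filament. In striated muscle they act with troponin to control the access of myosin to actin, and in other cells they mark filament populations and influence how myosin II, cofilin and other proteins act on them. Each gene yields several isoforms through alternative starts and splicing, and the values below are per gene, without resolution of isoforms. Cyclin K, encoded by CCNK, is the cyclin partner of CDK12 and CDK13, kinases that act on RNA polymerase II.

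Cyclin K mRNA was low in every siCyclin K library. CCNK stood at 7.02 ± 0.107 FPKM (SD, n = 3; FPKM is a read level scaled to gene length and library size) after scrambled siRNA, at 0.809 ± 0.0857 after siCyclin K#1 and at 0.844 ± 0.0661 after siCyclin K#2, which is 11.5% and 12.0% of the scrambled mean. The direct difference between both siRNAs was -0.06 on the log2 scale (95% interval -0.28 to 0.16; limma adjusted p = 0.73). Depth recovered from the value steps was 31333749 to 33767961 reads per library. Among the epithelial markers, KRT8 ranged from 49.7 to 65.4 FPKM in the scrambled group, 80.6 to 104.9 after siCyclin K#1 and 93.7 to 101.1 after siCyclin K#2, and was higher with both (log2 differences 0.78 and 0.83, limma adjusted p = 0.000779 and 0.000806). CDH1, with means of 1.64, 3.88 and 1.71 FPKM, was higher after siCyclin K#1 (1.17, limma adjusted p = 0.00428), and KRT18, with means of 83.2, 74.1 and 90.2, was lower there (-0.17, limma adjusted p = 0.00905). KRT19 and EPCAM stayed at or below 0.279 in all 9 libraries. The summed level of 6 smooth muscle and fibroblast markers was 2.25 to 2.69 after scrambled siRNA, 15.5 to 17.4 after siCyclin K#1 and 3.46 to 3.63 after siCyclin K#2. COL1A1 held most of it, with means of 2.03, 14.0 and 3.19 FPKM. LUM, with means of 0.356, 2.28 and 0.318, was higher after siCyclin K#1 (2.36, limma adjusted p = 1.81e-05). With siCyclin K#2 LUM stood at -0.12 (limma adjusted p = 0.697). COL3A1 and DCN were at or below 0.0919 in every library, and the smooth muscle markers MYH11 and DES at or below 0.0825. The striated muscle markers summed to 0.288 to 0.429, 2.14 to 2.25 and 0.484 to 0.733, mostly MB, with MYH6 and CKM at or below 0.212, and those of blood and endothelium to at most 0.0445. The part of these shifts in the results below was not tested. In bulk RNA, fewer cells of a type and less RNA per cell cannot be told apart.

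The 4 genes lie on different chromosomes in GRCh38. TPM1 is at chr15:63042632-63071915 on the plus strand, TPM2 at chr9:35681992-35690121 on the minus strand, TPM3 at chr1:154155304-154194648 on the minus strand and TPM4 at chr19:16067021-16103005 on the plus strand. RefSeq promoter windows, from 250 bases before to 50 bases after a transcription start, were held for all 4 genes: 1 for TPM1, 2 for TPM2, 2 for TPM3 and 3 for TPM4. The windows of TPM4 are shown because its level changed by far the most, and a window of TPM2 because TPM2 was the other member higher with each siRNA. Each is written 5′ to 3′ in the direction of the gene, with a CArG box in capitals. This is the motif bound by SRF, a transcription factor of actin and other cytoskeletal genes.
TPM4 start 1: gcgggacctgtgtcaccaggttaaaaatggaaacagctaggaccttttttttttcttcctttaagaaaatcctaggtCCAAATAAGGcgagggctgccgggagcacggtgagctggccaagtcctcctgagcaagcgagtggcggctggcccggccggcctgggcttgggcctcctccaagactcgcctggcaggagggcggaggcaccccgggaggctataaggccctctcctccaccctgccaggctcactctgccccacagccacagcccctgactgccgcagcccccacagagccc
TPM4 start 2: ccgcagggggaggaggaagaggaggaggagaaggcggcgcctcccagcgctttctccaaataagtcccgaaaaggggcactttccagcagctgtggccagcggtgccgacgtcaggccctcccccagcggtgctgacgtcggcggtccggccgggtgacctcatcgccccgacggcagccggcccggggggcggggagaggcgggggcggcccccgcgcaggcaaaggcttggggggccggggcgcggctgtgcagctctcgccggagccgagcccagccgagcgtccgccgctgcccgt
TPM4 start 3: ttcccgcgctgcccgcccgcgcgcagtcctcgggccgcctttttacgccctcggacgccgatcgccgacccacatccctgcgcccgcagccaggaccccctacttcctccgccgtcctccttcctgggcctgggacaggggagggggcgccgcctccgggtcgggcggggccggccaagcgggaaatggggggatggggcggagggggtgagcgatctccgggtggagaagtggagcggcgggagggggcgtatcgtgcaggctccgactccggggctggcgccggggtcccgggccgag
TPM2 start 2: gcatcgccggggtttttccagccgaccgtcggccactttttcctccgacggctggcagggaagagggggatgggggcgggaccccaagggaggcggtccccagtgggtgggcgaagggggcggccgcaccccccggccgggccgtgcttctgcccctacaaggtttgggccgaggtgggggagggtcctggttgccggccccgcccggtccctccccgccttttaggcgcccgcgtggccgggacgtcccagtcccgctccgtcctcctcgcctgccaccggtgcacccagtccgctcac
The TPM4 windows lie at chr19:16067288-16067587, chr19:16076245-16076544 and chr19:16076766-16077065, and the TPM2 window at chr9:35689876-35690175 (GRCh38.p14, RefSeq). A CArG box stood only in the window of TPM4 start 1, with its first base 173 bases before the start, among the 8 windows of the 4 genes. Of 35116 RefSeq windows of this length, 1.29% held one. The letters TATAAA (11.5% of all windows), CCAAT (34.6%), GGAATG (14%) and TGANTCA (7.71%) were found in none of the 8 windows on either strand. A match describes these letters only. The windows of TPM4 start 2 and start 3 were rich in G and C, at 75% and 76% against a median of 58.7% over all windows, while that of start 1 held 63%.

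By FPKM, TPM4 was the lowest of the family after scrambled siRNA and the highest with each Cyclin K siRNA. Its FPKM was 6.97, 7.40 and 7.84 in the scrambled libraries, 122.1, 62.4 and 107.1 in those after siCyclin K#1, and 75, 43.6 and 65.0 in those after siCyclin K#2. Every siCyclin K library lay above every scrambled library, and the lowest of them was replicate 2 with either siRNA. The means were 7.40 ± 0.438, 97.2 ± 31.1 and 61.2 ± 16.0 FPKM (SD, n = 3 each), so the means after siCyclin K#1 and siCyclin K#2 were 13.1 and 8.27 times the scrambled mean. On the log2(FPKM + 0.1) scale, the fitted differences were 3.64 and 3.00. Of the 21048 genes tested, 10 had a larger log2 difference after siCyclin K#1 and 3 after siCyclin K#2. Against all tested genes, TPM4 went from percentiles 77.1 to 79.1 in the scrambled libraries to percentiles 96.6 to 99.2 in the siCyclin K libraries. All of these values describe the contrast in which TPM4 was picked.

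**Figure D1:**
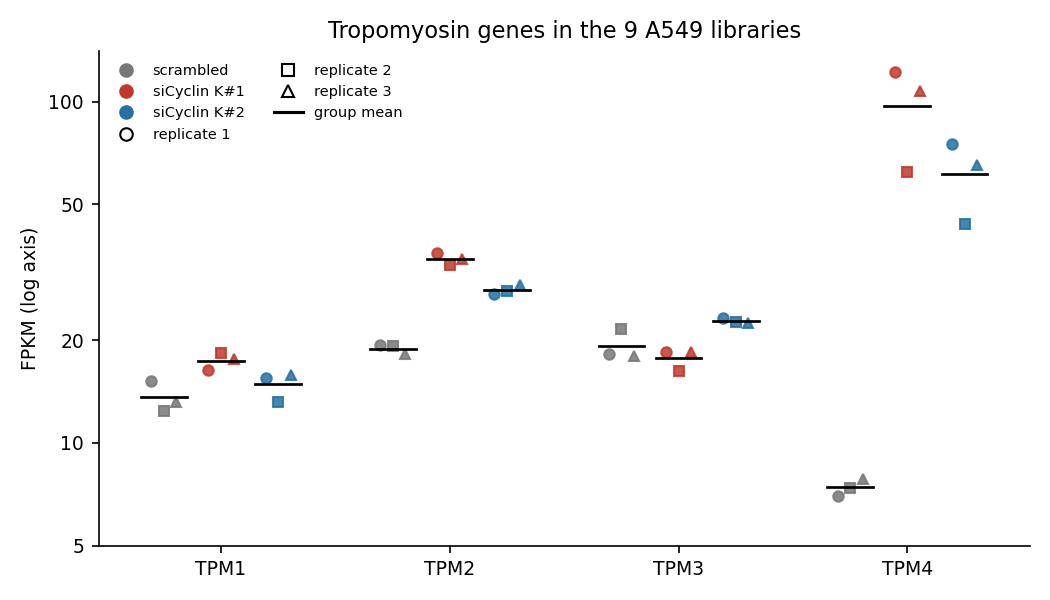
FPKM of the 4 tropomyosin genes on a log axis in the 9 libraries. Colour gives the siRNA group, symbol shape the replicate number and black bars the group means. TPM4 moves from 6.97 to 7.84 FPKM after scrambled siRNA to 43.6 to 122.1 FPKM with a Cyclin K siRNA, while TPM1, TPM2 and TPM3 stay between 12.4 and 35.9 FPKM in all libraries.

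TPM2, which encodes the beta chain of muscle tropomyosin and is also used outside muscle, was higher with both siRNAs. Its FPKM was 19.3, 19.2 and 18.2 after scrambled siRNA, 35.9, 33.3 and 34.7 after siCyclin K#1, and 27.3, 27.9 and 29.02 after siCyclin K#2. The 3 groups did not overlap, and replicates differed by at most 1.08 times within a group. TPM2 rose by 0.87 on the log2 scale after siCyclin K#1 (SE 0.043, adjusted p = 7.1e-07, limma) and by 0.57 after siCyclin K#2 (SE 0.043, adjusted p = 1.5e-05). These correspond to 1.83 and 1.48 times the control.

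TPM1, the alpha chain of muscle tropomyosin with several non-muscle isoforms, differed less. Its FPKM was 15.2, 12.4 and 13.2 after scrambled siRNA, 16.3, 18.3 and 17.6 after siCyclin K#1, and 15.5, 13.2 and 15.9 after siCyclin K#2. The siCyclin K#1 libraries lay above all scrambled libraries, and the siCyclin K#2 libraries overlapped them. TPM1 was higher after siCyclin K#1 by 0.36 (SE 0.094, limma adjusted p = 0.013), a call that was lost after median-ratio rescaling of the libraries (0.24, adjusted p = 0.079). With siCyclin K#2 the difference was 0.13 (95% interval -0.09 to 0.34, limma adjusted p = 0.35).

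TPM3, whose short isoforms are found in most non-muscle cells and whose long form belongs to slow muscle, did not move in step with the others. Its FPKM was 18.3, 21.5 and 18.0 after scrambled siRNA, 18.5, 16.2 and 18.4 after siCyclin K#1, and 23.3, 22.6 and 22.4 after siCyclin K#2. The siCyclin K#2 libraries were above all other libraries, and the siCyclin K#1 libraries overlapped the control. The log2 difference was -0.12 after siCyclin K#1 (95% interval -0.29 to 0.06, limma adjusted p = 0.26), and after median-ratio rescaling it was -0.24 with adjusted p = 0.034. With siCyclin K#2 TPM3 was higher by 0.24 (SE 0.077, limma adjusted p = 0.038). That call was narrow: it was lost with median-ratio rescaling (0.20, adjusted p = 0.081), with quantile normalization (0.20, adjusted p = 0.080) and without any of the 3 siCyclin K#2 libraries or without scrambled replicate 1 or 3 (adjusted p 0.072 to 0.12).

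Of TPM1, TPM2 and TPM3, 2 were higher at an adjusted p under 0.05 after siCyclin K#1 (TPM1 and TPM2) and none was lower, where 26.8% of all tested genes were higher and 18.1% lower. For siCyclin K#2, 2 were higher (TPM2 and TPM3) and none lower, against 19.8% and 15.2% of all tested genes. None of the 3 passed, in limma, the thresholds of the study's methods, a fold change over 3 and p under 0.01. Upward, 3.19% of all genes passed them after siCyclin K#1 and 1.08% after siCyclin K#2. The study's results text names a lower fold change. At an unadjusted p under 0.05 the counts were the same 2 with each siRNA. The share of all tested genes at that threshold was not computed, so these counts stand without a background. With both siRNAs taken as 1 group of 6 libraries, TPM2 alone of the 3 passed (log2 difference 0.72, limma adjusted p = 0.0005, against 28.6% of all genes), with TPM1 at 0.24 (adjusted p = 0.12) and TPM3 at 0.06 (adjusted p = 0.75). The median log2 difference of all tested genes was 0.10 after siCyclin K#1 and 0.01 after siCyclin K#2. Median-ratio rescaling moved the first to 0.001 and took the siCyclin K#1 calls by fold change from 671 higher and 312 lower to 547 and 393.

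The direct comparison of both siRNAs was not used to choose any member. TPM2 was higher after siCyclin K#1 than after siCyclin K#2 by 0.30 on the log2 scale (SE 0.043, limma adjusted p = 0.00087), and TPM3 was lower by 0.36 (SE 0.077, limma adjusted p = 0.0076). In each case the 3 libraries of the 2 groups did not overlap. TPM4 was higher after siCyclin K#1 in its mean, by 0.65 (95% interval 0.05 to 1.25), yet its libraries overlapped and the difference did not pass after adjustment (limma adjusted p = 0.11). Without siCyclin K#1 replicate 2 it was 0.94 with adjusted p = 0.013, and without siCyclin K#2 replicate 2 it was 0.42 with adjusted p = 0.29. TPM1 differed by 0.23 (95% interval 0.02 to 0.45, limma adjusted p = 0.11) with no overlap of the libraries. Thus 1 of the 4 was higher and 1 lower at an adjusted p under 0.05, where 17.1% of all tested genes were higher and 12.3% lower.

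**Figure D2:**
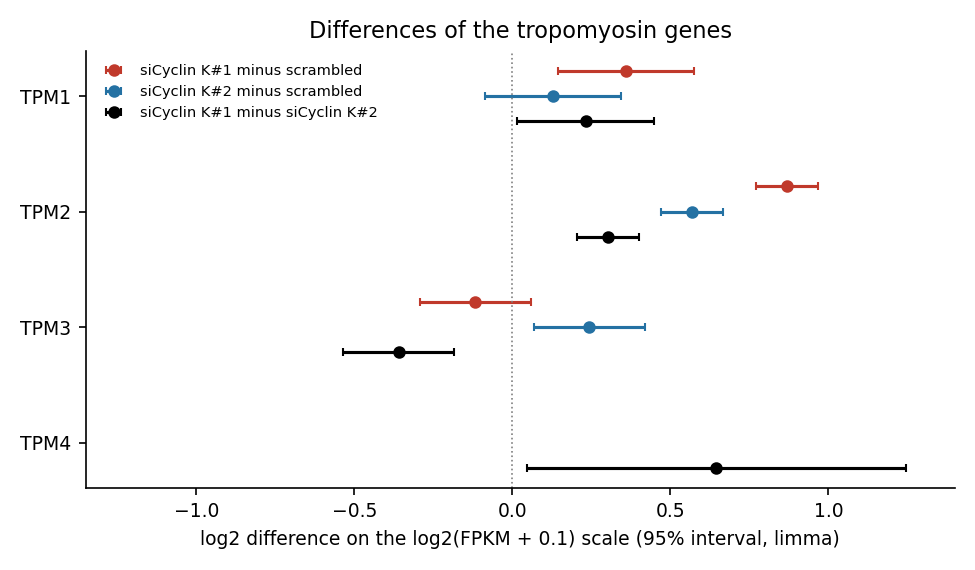
Log2 differences of the tropomyosin genes with 95% intervals from limma, on the log2(FPKM + 0.1) scale. Red and blue points give siCyclin K#1 and siCyclin K#2 minus scrambled, shown for TPM1, TPM2 and TPM3 only, and black points give siCyclin K#1 minus siCyclin K#2 for all 4. The interval of TPM4 is the widest, from 0.05 to 1.25, and TPM3 is the only gene whose direct difference is below 0.

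The order of the family by FPKM differed between the groups. FPKM here divides reads by the union of all annotated exons, 12876 bases for TPM1, 3248 for TPM2, 8389 for TPM3 and 8632 for TPM4, so levels between genes depend on how much of each union the cells use. With scrambled siRNA the order was TPM3 at 19.3, TPM2 at 18.9, TPM1 at 13.6 and TPM4 at 7.40 FPKM, and TPM3 and TPM2 overlapped. With siCyclin K#1 it was TPM4 at 97.2, TPM2 at 34.6, TPM3 at 17.7 and TPM1 at 17.4, and TPM3 and TPM1 overlapped. With siCyclin K#2 it was TPM4 at 61.2, TPM2 at 28.1, TPM3 at 22.8 and TPM1 at 14.9, with no overlap between neighbours.

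The summed tropomyosin FPKM was 57.2 to 60.5 in the scrambled libraries, 130.2 to 192.8 after siCyclin K#1 and 107.3 to 141.1 after siCyclin K#2. TPM4 made up 12.5% ± 1.05 of it after scrambled siRNA, 57.1% ± 8.17 after siCyclin K#1 and 47.7% ± 6.36 after siCyclin K#2 (SD, n = 3 each). The other 3 genes together had 51.8 ± 2.05, 69.8 ± 1.65 and 65.7 ± 1.85 FPKM. Their shares were accordingly smaller, and that of TPM3 went from 32.5% to 10.8% and 18.2% even though its own level was 92.0% and 118.1% of the control mean. Shares of reads, which are not divided by length, gave another order in the scrambled group, with TPM1 at 37.9% ± 3.63, TPM3 at 35.0% ± 3.31, TPM4 at 13.9% ± 1.19 and TPM2 at 13.3% ± 0.104. TPM4 held the most reads after siCyclin K#1, 62.2% ± 8.30, beside 17.6% for TPM1, 11.5% for TPM3 and 8.72% for TPM2. It also did after siCyclin K#2, with 52.1% ± 5.94 beside 19.4% for TPM3, 19.2% for TPM1 and 9.27% for TPM2.

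**Figure D3:**
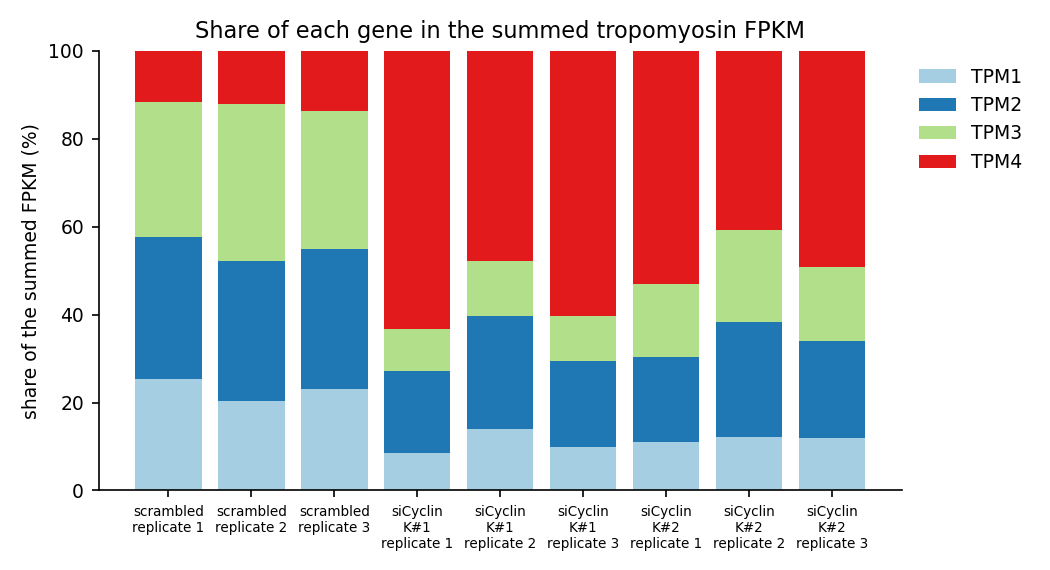
Share of each gene in the summed tropomyosin FPKM of each library, in percent. TPM4 (red) takes 11.7% to 13.7% of the sum in the 3 scrambled libraries and 40.7% to 63.3% in the 6 siCyclin K libraries.

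TPM4 also varied more between replicates than its relatives. Pooled over the 3 groups, its SD within groups was 0.38 on the log2 scale, against 0.13 for TPM1, 0.10 for TPM3 and 0.05 for TPM2. Among 1022 genes with a mean FPKM within a factor of 2 of its own, 97.6% had an SD no larger, and their median SD was 0.06. The spread was in the siCyclin K libraries, where the highest library was 1.96 times the lowest after siCyclin K#1 and 1.72 times after siCyclin K#2, against 1.13 times after scrambled siRNA. Counting error was small beside it: TPM4 had 16865 to 34113 reads after siCyclin K#1, for a counting CV of 0.61%. Both mates of a read pair are counted in these numbers, so the CV understates the counting error over pairs. The cause of this spread was not tested. TPM2 in the same libraries differed by at most 1.08 times.

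**Figure D4:**
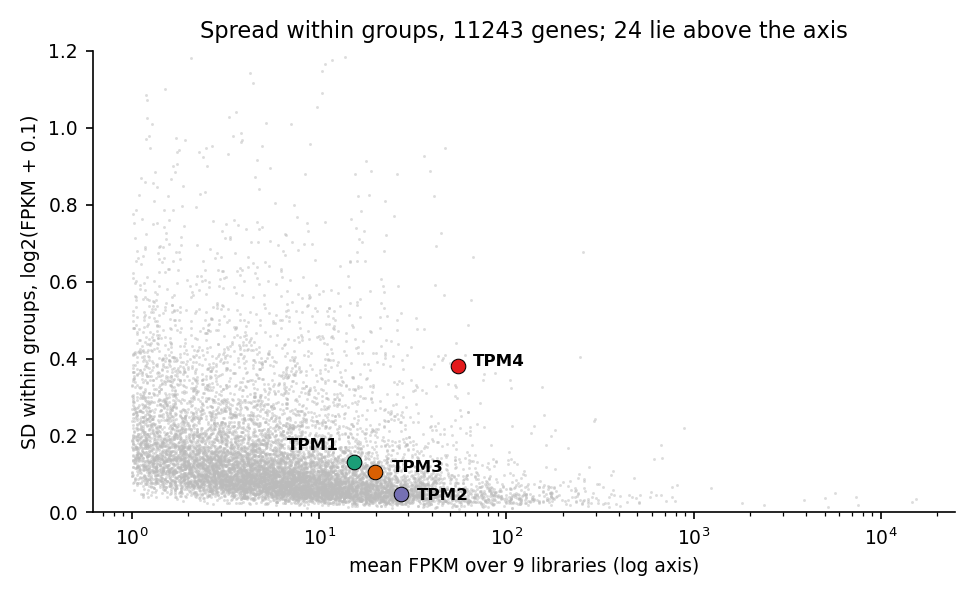
SD within groups on the log2(FPKM + 0.1) scale against mean FPKM (log axis) for the 11243 genes whose mean FPKM was 1 or more, 24 of which lie above the axis. TPM4 lies at 0.38, above 97.6% of the genes near its level, and TPM1, TPM2 and TPM3 lie at 0.13, 0.05 and 0.10.

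As a guide to how far reads of the genes could be mixed with those of other loci, stretches of 75 bases were compared in the transcripts of GENCODE 29. These stretches are shorter than the reads the paper describes, so the shares do not measure mixing of reads directly. No stretch of 75 bases was shared between 2 of the 4 tropomyosin genes. TPM2 shared none with any other gene, TPM3 shared 1.19% of its stretches, TPM4 8.43% and TPM1 17.5%. For TPM1 the partner was mostly TPM1-AS on the opposite strand, which was listed at 0.461 to 1.08 FPKM and did not pass the test with either siRNA (log2 difference -0.19 after either siRNA, limma adjusted p = 0.67 and 0.69). For TPM4 it was mostly AC008894.3, at chr19:16074293-16077395 on the minus strand, which covers the windows of TPM4 start 2 and start 3 and shares 829 of its 3103 exon bases with TPM4. AC008894.3 stood at 0.162 to 0.179 FPKM after scrambled siRNA, at 0.411 to 0.704 after siCyclin K#1 and at 0.371 to 0.597 after siCyclin K#2, so it too was higher (log2 differences 1.202 and 1.091, limma adjusted p = 0.0021 and 0.0049). Whether counting used strand is not given in the sources used here, and without strand the reads of both genes cannot be told apart where they overlap. The processed pseudogenes TPM3P1, TPM3P6, TPM3P7 and TPM3P8 stayed at or below 0.713 FPKM, and TPM3P9, joined with ZNF761 in 1 row, at 1.31 to 2.18.

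The genes beside each member were taken as the 2 nearest on each side with a mean FPKM of at least 1. Next to TPM4, FAM32A (82.4 kb away) was higher, at 8.18 ± 0.178, 33.8 ± 0.578 and 30.4 ± 0.957 FPKM (log2 differences 2.03 and 1.88, limma adjusted p = 6.8e-09 and 2.3e-08). HSH2D and RAB8A, joined in 1 row 8.6 kb away, did not pass (0.24 and 0.45, limma adjusted p = 0.26 and 0.064), though the second difference passed without any single scrambled library (adjusted p 0.018 to 0.046). On the other side, at least 404.2 kb away, CYP4F3 was higher (1.64 and 1.10, limma adjusted p = 0.0018 and 0.019, the second lost without siCyclin K#2 replicate 1 at 0.066) and RPL23AP2 did not pass (0.39 and -0.06, limma adjusted p = 0.26 and 0.89).

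Beside TPM2, CA9 ends 0.8 kb from it. CA9, a carbonic anhydrase induced by hypoxia, stood at 9.56 ± 0.857 FPKM after scrambled siRNA, 1.14 ± 0.179 after siCyclin K#1 and 16.0 ± 0.851 after siCyclin K#2, so it was lower with the first siRNA and higher with the second (log2 differences -2.97 and 0.74, limma adjusted p = 1.3e-07 and 0.00075). ARHGEF39 was lower with both (-1.21 and -0.87, limma adjusted p = 1.8e-05 and 0.00021). TLN1, which encodes the adhesion adaptor talin and lies 6.8 kb away, was higher with both (0.57 and 0.31, limma adjusted p = 1.2e-06 and 7.9e-05), and CREB3 passed with neither (0.11 and -0.02, limma adjusted p = 0.084 and 0.77).

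Beside TPM1, LACTB (49.9 kb away) was lower with both siRNAs (-0.68 and -0.39, limma adjusted p = 4.5e-06 and 0.00021). The talin gene TLN2 (198.0 kb away) was higher with both (0.88 and 0.44, limma adjusted p = 4e-05 and 0.0037). RPS27L (54.0 kb away) was higher after siCyclin K#1 and lower after siCyclin K#2 (0.67 and -0.26, limma adjusted p = 1.5e-05 and 0.0054). VPS13C (982.2 kb away) was higher after siCyclin K#1 (0.48, limma adjusted p = 0.00023). It stood at -0.14 after siCyclin K#2 (adjusted p = 0.11), which passed after median-ratio rescaling (adjusted p = 0.042). Beside TPM3, the ribosomal protein gene RPS27 (163.1 kb away) was lower with both (-0.66 and -1.03, limma adjusted p = 6.6e-05 and 8.1e-06). RAB13 (168.9 kb away) was lower after siCyclin K#1 (-0.73, limma adjusted p = 0.0023) and stood at -0.32 after siCyclin K#2 (adjusted p = 0.11). C1orf43 (12.1 kb away) passed with neither (-0.02 and -0.09, limma adjusted p = 0.79 and 0.13), yet was lower with both after median-ratio rescaling (-0.14 each, adjusted p = 0.031 and 0.036). UBAP2L, joined with SNORA58B and 25.5 kb away, was higher by 0.13 after siCyclin K#1, a call lost after median-ratio rescaling (0.01). It stood at 0.04 after siCyclin K#2 (limma adjusted p = 0.035 and 0.57 with the 2 siRNAs).

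The genes most like each member were ranked by Pearson r over the 9 libraries among 11242 others. For TPM4 they were HSD17B11, HLX, SZRD1 and SLC27A1, each with r = 0.994, and the row joining ZNF177, ZNF559 and ZNF559-ZNF177 with r = 0.99. HSD17B11, for example, had means of 8.57, 17.7 and 14.9 FPKM and SLC27A1 0.534, 2.12 and 1.70. TPM2 was most like RNF130 (r = 0.998), CLSTN1 (0.997) and DENND3 (0.997), with CLSTN1 at 19.1, 35.1 and 28.2 FPKM. Among the genes most like TPM1 were PIAS2 (0.945) and AC009275.1 (0.933), and TPM3 was most like ZNF699 (0.973), ANAPC13 (0.963) and RGS3 (0.947). Among the members, r was 0.97 for TPM2 with TPM4 and -0.48 for TPM1 with TPM3. All these points share the 3 groups, so r mostly carries the order of the group means.

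Other genes of the actin filament were described from lists of 87 genes, of which 65 were tested. With siCyclin K#1, 36 of the 65 (55.4%) were higher and 10 (15.4%) lower at a limma adjusted p under 0.05, against 26.8% and 18.1% of all tested genes. For siCyclin K#2, 27 (41.5%) were higher and 9 (13.8%) lower, against 19.8% and 15.2%. The lower shares were thus near those of all genes. Of the 65, 60 had a mean FPKM of at least 1, beside 11243 of the 21048 tested genes. Shares among genes of like level were not computed. The median log2 differences were 0.21 and 0.15, beside 0.10 and 0.01 over all tested genes. After median-ratio rescaling the counts were 27 higher and 15 lower after siCyclin K#1, where 4663 and 4660 of all 21048 genes were. For siCyclin K#2 they were 24 and 10, where 3743 and 3621 of all genes were. Quantile normalization gave 38 higher and 9 lower after siCyclin K#1, beside 4640 and 4588 of all genes. After siCyclin K#2 it gave 26 and 10, beside 3675 and 3653. By fold change over 3, 4 of 65 were higher after siCyclin K#1 and none after siCyclin K#2, where 3.19% and 1.08% of all genes were.

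All 3 actins tested were higher with both siRNAs, where 26.8% and 19.8% of all genes were. ACTB and ACTG1 encode the cytoplasmic actins. ACTB ranged from 255.2 to 271.4 FPKM after scrambled siRNA, 499.4 to 535.9 after siCyclin K#1 and 426.8 to 437.6 after siCyclin K#2, and ACTG1 from 548.2 to 589.1, 774.6 to 829.9 and 624.7 to 640.7. The call of ACTG1 after siCyclin K#2 (0.14, limma adjusted p = 0.0164) was lost after median-ratio rescaling (0.09, adjusted p = 0.10). The smooth muscle actin gene ACTA2 was low, with means of 0.475, 5.09 and 1.41 FPKM (log2 differences 3.182 and 1.402, limma adjusted p = 9.46e-08 and 1.7e-05).

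Of 12 tropomyosin-binding and thin-filament genes tested, 7 were higher and 1 lower after siCyclin K#1 (58.3% and 8.33%, all genes 26.8% and 18.1%), and 4 were higher and 2 lower after siCyclin K#2 (33.3% and 16.7%, all genes 19.8% and 15.2%). Their median after siCyclin K#2, 0.02, was near the 0.01 of all genes. TMOD1, a tropomodulin that caps the pointed end of tropomyosin-coated filaments, fell by 1.42 and by 0.72 on the log2 scale (limma adjusted p = 1.2e-05 and 0.00112). Its scrambled mean was 3.92 FPKM. The tropomodulin gene TMOD3, at 28.9 FPKM there, passed with neither siRNA (0.21 and -0.24, limma adjusted p = 0.226 and 0.184). TMOD2, at 0.255 FPKM there, was higher with both (1.605 and 1.033, limma adjusted p = 4.69e-05 and 0.00105). TNNT1, the slow skeletal troponin T that binds tropomyosin, was higher by 0.80 and 0.65 (limma adjusted p = 3.5e-06 and 2.24e-05), and the calponin gene CNN2 by 1.13 and 0.28 (limma adjusted p = 5.09e-07 and 0.00284). The calponin gene CNN3, at 48.2 FPKM after scrambled siRNA beside 13.9 for CNN2, was higher after siCyclin K#1 and lower after siCyclin K#2. Its log2 differences were 0.73 and -0.37 (limma adjusted p = 1.08e-05 and 0.00109). TAGLN2 was higher by 0.16 and 0.47, and the first of these was lost after median-ratio rescaling (0.04, limma adjusted p = 0.44).

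Of 10 genes of nonmuscle myosin II and its regulators, 9 were higher after siCyclin K#1 and none lower, where 26.8% of all genes were higher, and 7 were higher and 1 lower after siCyclin K#2, where 19.8% and 15.2% were. MYH9, the main nonmuscle myosin II heavy chain of many cells, ranged from 93.3 to 94.0 FPKM after scrambled siRNA, 156.5 to 165.4 after siCyclin K#1 and 160.4 to 166.4 after siCyclin K#2. MYH14, a further heavy chain at 0.656 FPKM after scrambled siRNA, was higher by 1.24 and 0.61. MYLK, the myosin light chain kinase gene, was higher by 0.69 and 0.85. PPP1CB, a catalytic subunit of myosin phosphatase that shares its row with SPDYA, was higher by 0.71 and 0.70. For MYH14, MYLK and PPP1CB, limma adjusted p ran from 1.37e-06 to 0.00182. The heavy chain gene MYH10, with means of 9.25, 12.6 and 7.92 FPKM, was higher after siCyclin K#1 and lower after siCyclin K#2. Its log2 differences were 0.44 and -0.22 (limma adjusted p = 6.55e-05 and 0.00559).

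Among 11 cross-linkers and adhesion adaptors, 8 were higher and 1 lower after siCyclin K#1 (72.7% and 9.09%, all genes 26.8% and 18.1%), and 6 higher and 3 lower after siCyclin K#2 (54.5% and 27.3%, all genes 19.8% and 15.2%). PALLD, which encodes palladin, was higher by 0.96 and 0.36 and PLS3, which encodes the bundling protein plastin 3, by 0.87 and 0.23. ACTN1, in a row joined with HMGN1P3, was higher by 0.19 and 0.26, the first of which was lost after median-ratio rescaling (0.07, limma adjusted p = 0.40). Among 12 filament turnover genes, 2 were higher and 4 lower after siCyclin K#1 (16.7% and 33.3%, all genes 26.8% and 18.1%), and 2 were higher and 2 lower after siCyclin K#2, 16.7% each and near the 19.8% and 15.2% of all genes. GSN, which encodes the severing protein gelsolin, was higher by 1.35 and 0.32. The profilin genes were lower, PFN1 at -0.25 and -0.20, which was lost after quantile normalization (-0.05 and -0.07), and PFN2, joined with ANKUB1, at -0.56 and -0.31, the second narrowly (limma adjusted p = 0.0497).

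Among 14 nucleators, 5 were higher and 4 lower after siCyclin K#1 (35.7% and 28.6%, all genes 26.8% and 18.1%), and 4 were higher and 1 lower after siCyclin K#2 (28.6% and 7.14%, all genes 19.8% and 15.2%). Their medians of 0.03 and 0.07 lay near those of all genes, 0.10 and 0.01. The formin genes DIAPH1 and DIAPH2 were higher, by 1.01 and 0.92 and by 0.84 and 0.36, and the formin gene FHOD1 was lower, at -0.39 and -0.19. Of SRF and its cofactors, MRTFA, listed under its older symbol MKL1, was higher, with means of 5.32, 16.5 and 11.4 FPKM (log2 differences 1.61 and 1.09, limma adjusted p = 6.35e-08 and 1.01e-06). SRF was higher after siCyclin K#1 (0.92, limma adjusted p = 3.41e-05) and stood at 0.08 after siCyclin K#2 (adjusted p = 0.52). In MRTFB, in a row joined with TVP23CP2, the differences were -0.12 and -0.10 with SEs of 0.41.

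**Figure D5:**
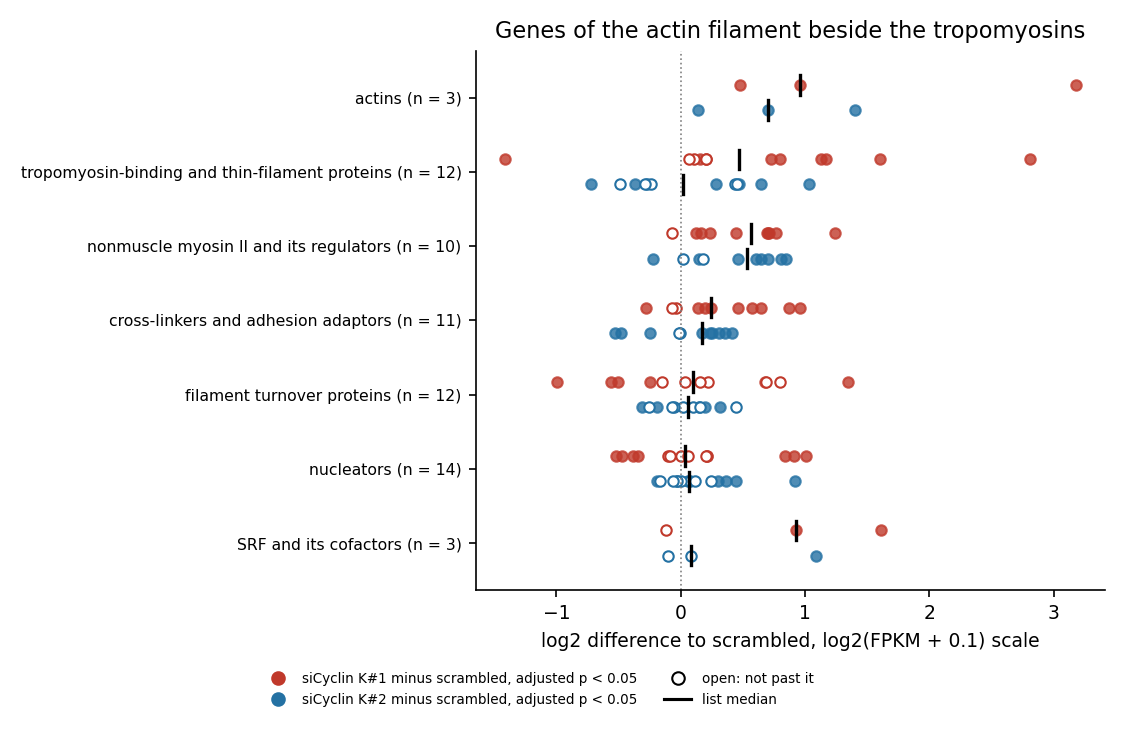
Log2 differences to scrambled siRNA for the 65 tested genes of the actin filament lists, after siCyclin K#1 in red and siCyclin K#2 in blue. Filled points passed an adjusted p under 0.05 in limma, open points did not, and black ticks are list medians. All 3 actins lie above 0 with both siRNAs, while filament turnover genes and nucleators lie on both sides.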

How the data were processed

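RNA from 9 A549 libraries (3 scrambled, 3 siCyclin K#1, 3 siCyclin K#2) was sequenced. Per the submitters' processing notes, the authors used StringTie 1.3.3b and deposited FPKM per gene or assembled locus for each library. The aligner, annotation release and strand setting are not given in the sources used here. Low values move in whole steps: 83.66% of nonzero values were whole reads within 0.01 over GENCODE 29 exon lengths, and all 4 members were whole in 9 of 9 libraries, which gave depth. The commonest step was taken as a pair of reads, so depth and read numbers hold both mates of a pair.

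Rows of 1 reference gene were summed, and loci without a reference gene were left out. Genes that reached 0.1 FPKM in 3 or more libraries, 21048 in all, entered limma 3.58.1 as log2(FPKM + 0.1) (R 4.3.3; lmFit, eBayes with trend, Benjamini-Hochberg adjustment over all tested genes). The pseudocount understates changes of low genes. The fit was tested on simulated data. Depth limits only genes of few reads, and counting intervals would cover counting error only. With 3 against 3 libraries, an exact permutation test could not go below p = 0.1, so none was used. Alternatives were other pseudocounts, filters and scalings, omission of single libraries, a replicate block, a fit with no trend and voom on recovered reads, which was added after seeing the data.

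The members and gene lists were chosen with earlier results of these data known. Named were the members, CCNK, the genes most like each member by Pearson r (5 for TPM4 and 3 for the others, of which 1 is not reported here), its neighbours, antisense genes and pseudogenes, and of each list at most 4 genes of mean FPKM of at least 1 that passed with both siRNAs in 1 direction, by size. SRF, MRTFB, AC008894.3, TMOD2, TMOD3, CNN3 and MYH10 were named after their values were seen. Promoter windows came from RefSeq (GRCh38.p14), and motifs were searched on both strands.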

Additional observations from a re-analysis of the deposited data

Results flagged for a closer look

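TPM2 and TPM3 differed between the 2 Cyclin K siRNAs in the direct limma test. For TPM2, siCyclin K#1 minus siCyclin K#2 was 0.30 on the log2 scale (SE 0.043, adjusted p = 0.00087), with both siRNAs above the control. For TPM3 it was -0.36 (SE 0.077, adjusted p = 0.0076), with means of 17.7 and 22.8 FPKM on either side of the scrambled mean of 19.3. CCNK itself stood at 0.809 and 0.844 FPKM in these groups. The cause of the difference between both siRNAs was not tested. Groups of 3 libraries were too small for a search for outlying libraries.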

How the results depend on the processing

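TPM2 kept its direction and its call against scrambled siRNA and between both siRNAs under all 19 alternatives, and TPM3 kept its call between both siRNAs (-0.43 to -0.30). TPM4 against scrambled siRNA ranged from 3.45 to 3.93 with siCyclin K#1 and from 2.83 to 3.22 with siCyclin K#2. TPM1 with siCyclin K#1 lost its call after median-ratio rescaling (0.24). TPM3 with siCyclin K#1 gained one there (-0.24). With siCyclin K#2 it lost its call with no filter on low values (0.24, adjusted p = 0.055), median-ratio rescaling (0.20) and quantile normalization (0.20). It also lost its call with no trend (0.24), with the replicate block (0.24, adjusted p = 0.078) and without some single libraries. Among these were each siCyclin K#2 library and scrambled replicates 1 and 3. The difference ran from 0.20 to 0.33 over all omissions of 1 library. With both siRNAs pooled, TPM3 turned to -0.02 after median-ratio rescaling, and TPM1 gained a call as the mean of both contrasts (0.24, adjusted p = 0.040) and without siCyclin K#2 replicate 2 (0.30, range without single libraries 0.18 to 0.33). TPM4 between both siRNAs gained a call with the replicate block (0.65, adjusted p = 0.046) and without siCyclin K#1 replicate 2 (0.94), over a range of 0.42 to 0.94. Over 11243 genes, libraries of one number did not vary together (mean r = -0.01 over 9 pairs, from -0.07 to 0.04). This covers the genes as a whole, so single genes may still follow the number. TPM4 was highest in replicate 1 and lowest in replicate 2 with either Cyclin K siRNA, though not after scrambled siRNA. Whether the number pairs the libraries was not tested.

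Calls by fold over 3 moved by more than 1.5 times with the pseudocount and the filter. From 983, 409, 322 and 483 (siCyclin K#1, siCyclin K#2, both against each other, both pooled), they became 200, 70, 57 and 82 with a pseudocount of 1, and 474, 186, 113 and 245 at a mean FPKM of at least 1. With a pseudocount of 0.01 the last 3 were 709, 525 and 854. Quantile normalization took the split of higher and lower calls from 671 and 312 to 498 and 432 with siCyclin K#1 and from 204 and 118 to 142 and 159 between both siRNAs. voom on recovered reads, added after seeing the data, called 1013, 426, 385 and 452. Among the other genes named, some without a call changed sign. CREB3 became -0.008 (siCyclin K#1, median-ratio rescaling) and ran from -0.065 to 0.01 for siCyclin K#2 without single libraries. C1orf43 became 0.047 for siCyclin K#1 by quantile normalization and ran from -0.042 to 0.027. UBAP2L with SNORA58B became -0.012 by median-ratio rescaling and -0.014 by quantile normalization for siCyclin K#2. RPL23AP2 (siCyclin K#2) ran from -0.339 to 0.141 and TPM1-AS (siCyclin K#1) from -0.458 to 0.071 without single libraries. The cause was not tested.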
